A study of Rattus norvegicus with 19 samples.

Results

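The 7 coatomer genes Copa, Copb1, Copb2, Copg1, Copz1, Cope and Arcn1 were followed together with Arf1 in rat liver on postnatal day 4. These 8 genes, of 14217 with a gene symbol of their own on the array, were taken by symbol, and 12 of the 31042 probe sets tested belong to them. Copg1, Copz1, Arcn1 and Arf1 each have 2 probe sets, and the brighter one by its mean over the 19 arrays leads. The genes were chosen by name as members of one coat, with the measured log2 differences of the dose groups in view, so those differences are a description of these genes.

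Timed-mated Wistar Han dams (strain Crl:WI(Han)) were gavaged with corn oil alone or with DE-71 in corn oil, daily from gestation day 6 to postnatal day 4. DE-71 is a technical mixture of polybrominated diphenyl ethers that was sold as a flame retardant. The vehicle group had 5 arrays, 0.1 mg/kg per day had 5, 15 mg/kg had 4 and 50 mg/kg had 5. Every group shared the corn oil vehicle and the dosing volume, and RNA came from the left lateral lobe of the liver. The labels name neither litters nor the number of animals behind an array, and do not say whether pups or dams were sampled. They give female as the sex, but every array had high log2 signals of the Y-linked genes Uty (9.46 to 10.03) and Eif2s3y (9.55 to 10.07). Signals of Xist were low (3.88 to 4.29). The livers thus read as male, which goes against that label and against dams as their source.

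Coatomer is the coat of COPI vesicles, which bud from Golgi membranes and return proteins to the endoplasmic reticulum (ER). It is recruited as a whole by the GTP-bound form of the small GTPase Arf1. The beta, gamma, delta and zeta subunits form the inner, adaptor-like layer, which binds Arf1 and cargo. The alpha, beta prime and epsilon subunits form the outer layer, and alpha and beta prime also bind the KKXX-type retrieval signals of ER membrane proteins. Hepatocytes carry a heavy secretory load of plasma proteins, and in them COPI keeps ER residents and cargo receptors in circulation between ER and Golgi.

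The promoters of the members that were higher at 50 mg/kg by the widest margins, and of Arf1 as the member that recruits them, are shown so that their short motifs can be compared. Each is the RefSeq sequence (GRCr8) of 250 bases upstream of the transcript start that the RefSeq promoter table uses, 5′ to 3′ on the gene's strand. For Copg1 and Copb1 that start lies inside the annotated span of the gene. Capitals mark the motif CCACG, which ends the ER stress response element, and the motif TGACGT, the core of cAMP response elements, on either strand. The motif CCAAT, with which the ER stress response element begins, was also searched and is in none of these 5.
Copg1 (chr4:121923712-121923961, plus strand): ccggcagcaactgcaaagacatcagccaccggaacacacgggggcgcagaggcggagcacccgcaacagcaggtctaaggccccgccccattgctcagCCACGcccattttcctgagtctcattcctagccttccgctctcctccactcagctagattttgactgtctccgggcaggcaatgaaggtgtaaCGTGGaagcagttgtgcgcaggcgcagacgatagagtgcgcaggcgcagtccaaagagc
Copb1 (chr1:177872841-177873090, minus strand): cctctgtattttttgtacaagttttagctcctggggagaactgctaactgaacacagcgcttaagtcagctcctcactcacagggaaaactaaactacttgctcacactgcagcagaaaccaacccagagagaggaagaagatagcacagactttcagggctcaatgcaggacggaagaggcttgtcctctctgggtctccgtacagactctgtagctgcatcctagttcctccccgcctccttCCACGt
Copb2 (chr8:108040437-108040686, plus strand): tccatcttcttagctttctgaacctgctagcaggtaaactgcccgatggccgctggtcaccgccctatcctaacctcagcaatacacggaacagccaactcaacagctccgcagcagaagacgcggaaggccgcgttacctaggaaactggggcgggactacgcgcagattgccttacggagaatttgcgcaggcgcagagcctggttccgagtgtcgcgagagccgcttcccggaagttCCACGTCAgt
Arcn1 (chr8:53979006-53979255, minus strand): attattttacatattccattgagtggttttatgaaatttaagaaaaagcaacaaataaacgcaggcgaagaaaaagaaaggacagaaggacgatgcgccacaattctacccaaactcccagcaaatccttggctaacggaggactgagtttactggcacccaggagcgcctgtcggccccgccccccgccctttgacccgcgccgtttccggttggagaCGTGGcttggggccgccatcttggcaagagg
Arf1 (chr10:44513995-44514244, minus strand): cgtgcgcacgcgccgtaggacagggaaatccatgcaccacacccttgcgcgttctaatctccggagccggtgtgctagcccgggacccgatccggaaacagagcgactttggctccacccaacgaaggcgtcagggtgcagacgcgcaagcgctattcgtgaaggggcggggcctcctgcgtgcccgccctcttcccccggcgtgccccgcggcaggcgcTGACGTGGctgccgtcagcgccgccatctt

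Among the 8 member promoters, CCACG was found in 6 (Copa, Copb1, Copb2, Copg1, Arcn1 and Arf1), against 28.0% of 27457 RefSeq promoters of the same length, searched on both strands as were all motifs. In Copb1, Copb2, Arcn1 and Arf1 a copy lay within 31 bases of that start, and Copg1 held a copy on each strand. TGACGT was found in Copb2, Cope and Arf1 (3 of 8, against 7.25% of promoters). In Copb2 and in Arf1 it overlapped the CCACG copy. CCAAT was found in 2 of 8, Copz1 and Cope, against 34.3%. The whole ER stress response element, in which 9 bases part CCAAT from its other end, was in none of the 8 and in 0.0765% of all promoters. The core bound by the aryl hydrocarbon receptor, TNGCGTG, was in none of the 8 and in 4.26%. The GC box GGGCGG was in 6 of 8, against 32.4%. The member promoters held 50.4% to 68.4% G and C, around or above the median of 52% over all promoters, and short GC-containing motifs occur more often in such sequence. These matches describe letters in a window and no binding was measured.

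The values are log2 signals, and a probe set is compared only with itself. Exposure was checked with Cyp1a1, the monooxygenase induced through the aryl hydrocarbon receptor. It read 7.10 to 8.36 in vehicle, 13.16 to 14.17 at 15 mg/kg and 14.11 to 14.30 at 50 mg/kg. At 0.1 mg/kg replicate 1 read 14.06 and the other 4 arrays read 7.19 to 8.42, so replicate 1 goes against its label. Vehicle replicate 2 and 0.1 mg/kg replicate 2 were nearly the same array: the SD of their difference was 0.128 (r = 0.9986) over all probe sets, against 0.197 for the next closest of the 171 pairs. Results are given with these 3 arrays and, where a call changed, without them. The labels number the arrays from 1 to 20, and 4 of the 5 arrays at 50 mg/kg lie among numbers 1 to 8, which hold 1 array of each other group. Hepatocyte markers averaged 14.25 to 14.37 on every array. Those levels lie near the highest log2 value on any array (15.06), where fold changes are compressed. They therefore cannot show that hepatocyte content was even. The skeletal muscle markers were high in vehicle replicates 1 and 5 (mean level 9.86 and 7.84) and at 50 mg/kg in replicates 2 and 3 (8.20 and 8.08). They were raised less in 15 mg/kg replicates 2, 4 and 5 (5.87, 6.70 and 5.78), and read 4.21 to 4.76 on the remaining arrays. The exocrine pancreas markers were high in vehicle replicates 2 and 4 (8.25 and 7.09), 0.1 mg/kg replicate 2 (8.24) and 15 mg/kg replicate 5 (7.68), and at 50 mg/kg they read 5.03 to 5.20. The kidney markers were high in vehicle replicate 2 (10.09), 0.1 mg/kg replicate 2 (10.11) and 50 mg/kg replicate 3 (7.12). On the other arrays the kidney markers read 4.20 to 4.55.

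At 50 mg/kg most of the coatomer genes lay slightly above vehicle by their leading probe sets, with the largest differences in Copg1 and Copb1. Copg1 was 1.30-fold higher and Copb1 1.21-fold higher, and these were the 2 of 8 members that passed an adjusted p of 0.05 (limma, with adjustment after Benjamini and Hochberg across all probe sets). Among all 14217 genes 1.79% rose by the same rule, and among the 3107 genes whose leading probe set was at least as bright as the dimmest member 4.12% rose. Of the other 6, 5 read higher without passing and Copz1 read lower, and 0 of 8 fell, as did 0.443% of all genes. Being above 0, as 7 of 8 members were, was true of 51.5% of all genes. The median log2 fold change of the 8 was 0.16, beside 0.0058 over all genes. Unadjusted, 4 of 8 members were higher at p under 0.05, beside 11.0% of all genes and 17.7% of those as bright. Over all 12 probe sets 11 were above 0, 6 had an unadjusted p under 0.05 and 2 passed.

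**Figure D1:**
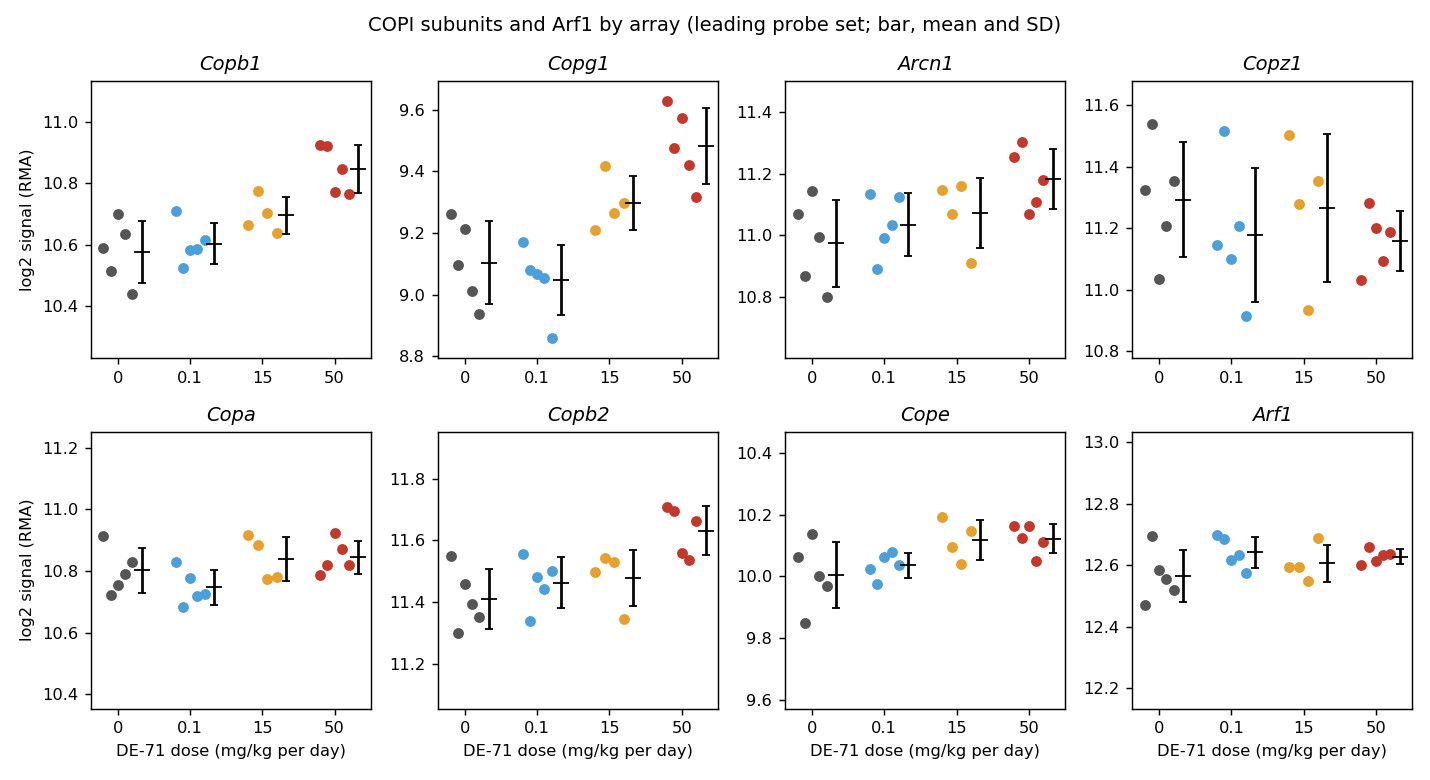
Log2 signal (RMA) of the leading probe set of each of the 8 genes against the DE-71 dose given to the dams (mg/kg per day), with 1 point per array and the mean and SD of each group beside its points (n = 5, 5, 4 and 5). Copg1 and Copb1 at 50 mg/kg lie above every vehicle array, and the groups of the other 6 genes overlap.

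Copg1 encodes the gamma subunit, an appendage-bearing adaptor of the inner layer. Its leading probe set read 9.26, 9.10, 9.21, 9.01 and 8.94 in vehicle replicates 1 to 5, and 9.63, 9.47, 9.57, 9.42 and 9.32 at 50 mg/kg. Every array at 50 mg/kg stood above every vehicle array, the closest being 50 mg/kg replicate 5 and vehicle replicate 1. The log2 fold change was 0.38 (SE 0.079, 95% interval 0.21 to 0.55, adjusted p = 0.0228, limma). The other Copg1 probe set did not show this: it read 8.91 to 9.09 in vehicle and 8.91 to 9.14 at 50 mg/kg. Its groups overlapped throughout, with a log2 fold change of 0.03 (SE 0.086, adjusted p = 0.879, limma), and the mean of both probe sets differed by 0.21 (adjusted p = 0.150). Which probe set follows the transcript better was not tested.

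Copb1 encodes the beta subunit, the large inner-layer partner of delta. It read 10.59, 10.52, 10.70, 10.63 and 10.44 in vehicle and 10.92, 10.92, 10.77, 10.85 and 10.76 at 50 mg/kg. The groups did not overlap, with 50 mg/kg replicate 5 just above vehicle replicate 3. The log2 fold change was 0.27 (SE 0.060, 95% interval 0.14 to 0.40, adjusted p = 0.0317, limma). Copb1 and Copg1 were the 2 members whose groups did not overlap, a pattern shown upward by 4.35% of all genes and 8.08% of genes as bright.

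Arcn1 encodes the delta subunit. It read 11.07, 10.87, 11.14, 10.99 and 10.80 in vehicle and 11.25, 11.30, 11.07, 11.11 and 11.18 at 50 mg/kg. Vehicle replicate 3 overlapped the 50 mg/kg arrays, vehicle replicate 1 lay just below the lowest of them, and the difference of 0.21 (SE 0.077, adjusted p = 0.196, limma) did not pass. Its other probe set differed by 0.34 (SE 0.130, adjusted p = 0.215). Both Arcn1 probe sets thus read higher without passing.

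Copz1, the small zeta subunit that pairs with gamma, was the exception in direction. Its leading probe set read 11.32, 11.54, 11.04, 11.21 and 11.35 in vehicle and 11.03, 11.28, 11.20, 11.10 and 11.19 at 50 mg/kg, a difference of -0.13 (SE 0.117, adjusted p = 0.614, limma). Of the leading probe sets it had the widest spread in vehicle (SD 0.186), at 0.1 mg/kg (SD 0.218) and at 15 mg/kg (SD 0.24). The other Copz1 probe set differed the opposite way, by 0.26 (SE 0.133, adjusted p = 0.355). No direction can be given for Copz1, since its 2 probe sets disagree in sign and neither passed. The closely related subunit genes Copg2 (0.15, SE 0.082, adjusted p = 0.403) and Copz2 (0.14, SE 0.087, adjusted p = 0.469), which replace gamma 1 and zeta 1 in alternative coatomers, did not pass either.

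In the outer layer, Copb2, the beta prime subunit with WD40 propellers, came closest to the threshold. It read 11.55, 11.30, 11.46, 11.39 and 11.35 in vehicle and 11.71, 11.70, 11.56, 11.54 and 11.66 at 50 mg/kg. The groups overlapped by 1 pair of arrays, vehicle replicate 1 and 50 mg/kg replicate 4. The log2 fold change was 0.22 (SE 0.064, 95% interval 0.09 to 0.36, adjusted p = 0.0929, limma).

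Copa and Cope showed little or no separation. Copa, the alpha subunit, read 10.72 to 10.91 in vehicle (median 10.79) and 10.79 to 10.92 at 50 mg/kg (median 10.82), a difference of 0.04 (SE 0.054, adjusted p = 0.747, limma). Its 95% interval ran from -0.07 to 0.15. Cope, the epsilon subunit that stabilises alpha, read 9.85 to 10.14 in vehicle and 10.05 to 10.16 at 50 mg/kg, a difference of 0.12 (SE 0.057, adjusted p = 0.328).

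Arf1, the GTPase that recruits coatomer, read 12.47, 12.69, 12.59, 12.55 and 12.52 in vehicle and 12.60, 12.66, 12.61, 12.63 and 12.64 at 50 mg/kg. The 50 mg/kg arrays lay inside the vehicle range, with a difference of 0.06 (SE 0.052, adjusted p = 0.582, limma). Its other probe set differed by 0.20 (SE 0.086, adjusted p = 0.270).

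**Figure D2:**
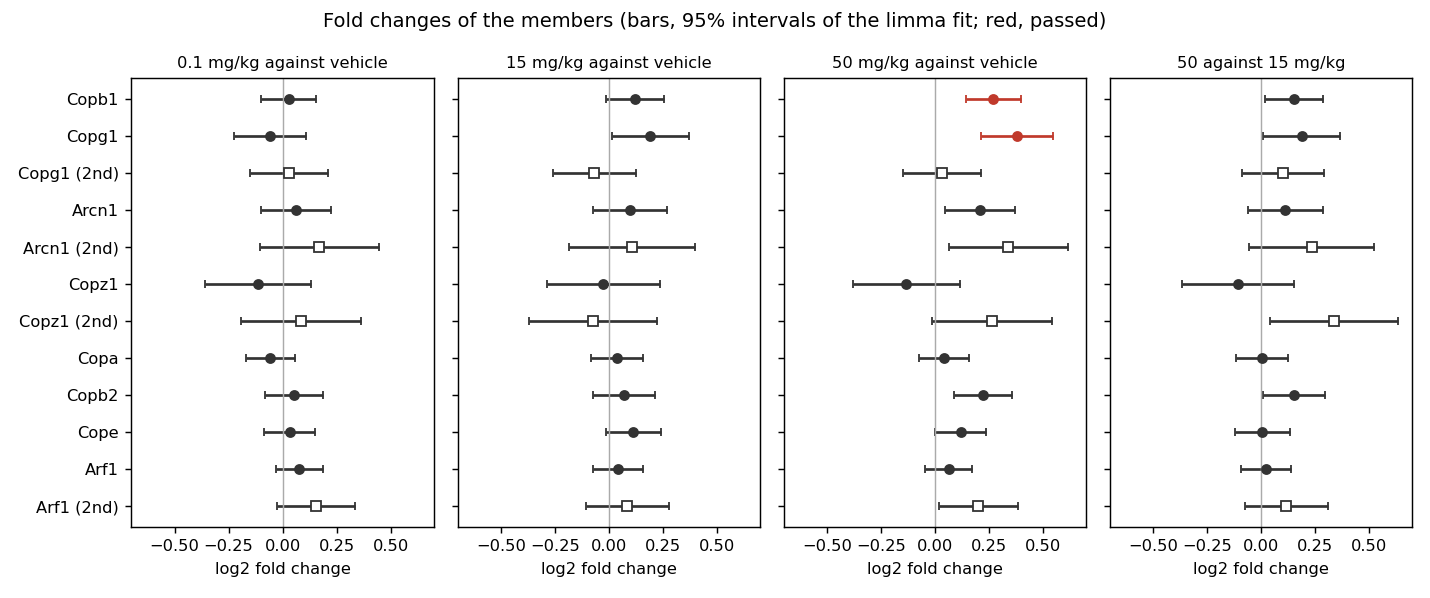
Log2 fold change with its 95% interval for every probe set of the 8 genes in the 4 comparisons of dose groups, filled for the leading probe set, open for the other one, and red where the adjusted p passed 0.05. Only Copb1 and the leading Copg1 probe set at 50 mg/kg against vehicle are red, and the 2 Copz1 probe sets lie on opposite sides of 0 there.

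Both calls at 50 mg/kg were close to the threshold. With array numbers 1 to 8 and 9 to 20 as a block, Copg1 differed by 0.31 (adjusted p = 0.148) and Copb1 by 0.24 (adjusted p = 0.172), so 0 members passed, and calls over all probe sets fell from 499 (1.61%) to 57 (0.184%). Within numbers 1 to 8, 4 arrays at 50 mg/kg stood 0.26 above the single vehicle array for Copg1 and 0.28 for Copb1. Within numbers 9 to 20, the single array at 50 mg/kg stood 0.25 above the mean of 4 vehicle arrays for Copg1 and 0.19 for Copb1. Across the 8 members 6 were higher in the first set (median 0.10) and 7 in the other (median 0.16), and these comparisons with a single array allow no test. Copb2 was 0.07 higher in the first set and 0.29 higher in the other, and Arcn1 0.12 and 0.23. What the numbers stand for is not in the labels, and their part in the differences was not tested.

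With the muscle and pancreas levels as covariates Copg1 differed by 0.38 (adjusted p = 0.0568) and Copb1 by 0.24 (adjusted p = 0.0989), and 0 members passed. The kidney level was not a covariate in that fit. Of the marker lists, 0 of 11 measured muscle genes and 0 of 11 pancreas genes passed, with median differences of -0.28 and -1.001. The muscle list's mean level ran from 4.30 to 9.86 in vehicle and from 4.36 to 8.20 at 50 mg/kg, and the pancreas list's from 5.05 to 8.25 and from 5.03 to 5.20. Of 4 neutrophil genes Camp, a granule peptide, fell by 0.94 (adjusted p = 0.0457, limma), with the list's median at -0.54 and its mean level at 10.65 to 11.76 in vehicle and 10.43 to 11.22 at 50 mg/kg. Over all genes 0.443% fell. The erythroid, stellate cell, bile duct and kidney lists also had negative medians (-0.30, -0.52, -0.51 and -0.50) with 0 members passed. So did the Kupffer cell and endothelial lists (-0.14 and -0.12). The hepatocyte list's median was -0.01, at levels near the top of the range. The lowest log2 value on any array was 2.40, and whether a marker was detected on an array was not tested. The part of these lists in the member differences was not tested either. In whole liver, a change in the make-up of cells and a change of RNA per cell cannot be told apart. Without the 3 arrays that stand apart, Copg1 passed (0.38, adjusted p = 0.0402) and Copb1 did not (0.25, adjusted p = 0.0629). Leaving out 1 array at a time left between 0 and 2 members passed: Copg1 did not pass without vehicle replicate 2, 4 or 5 or 50 mg/kg replicate 1 or 3 (adjusted p = 0.0509 to 0.0714). Copb1 did not pass without vehicle replicate 1, 2, 4 or 5 or 50 mg/kg replicate 1, 2 or 4 (adjusted p = 0.0516 to 0.0945).

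**Figure D3:**
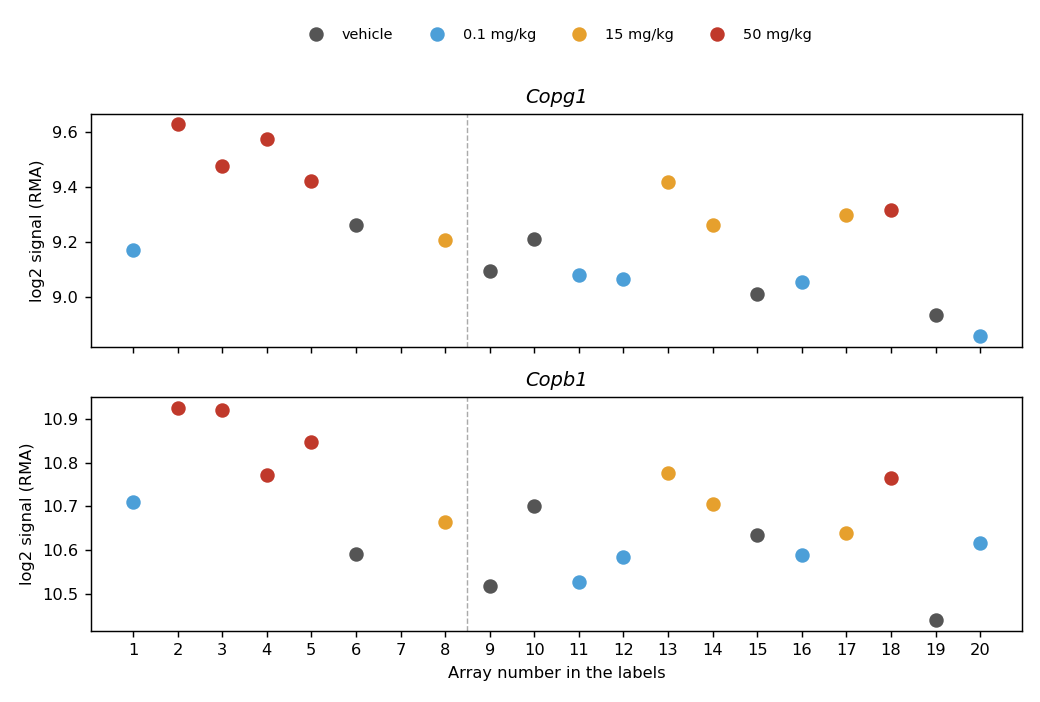
Log2 signal (RMA) of the leading probe sets of Copg1 (top) and Copb1 (bottom) against the array number in the labels, coloured by dose group, with a dashed line between numbers 8 and 9. The 50 mg/kg arrays lie above the vehicle arrays on the same side of the line, with 4 of 5 on the left and 1 on the right.

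At 15 mg/kg against vehicle the members lay between, and 0 of 8 passed, as did 0 of 31042 probe sets (0%). Unadjusted, 1 member was higher at p under 0.05, beside 6.12% of all genes. Copg1 read 9.21, 9.42, 9.26 and 9.30 in replicates 2 to 5, a difference of 0.19 (SE 0.084, adjusted p = 0.472, limma). The 15 mg/kg arrays overlapped vehicle, whose replicates 1 and 3 read 9.26 and 9.21. The other Copg1 probe set differed by -0.07 (SE 0.091, adjusted p = 0.803, limma), and the mean of both by 0.06 (adjusted p = 0.764). Copb1 read 10.66, 10.78, 10.70 and 10.64, a difference of 0.12 (SE 0.064, adjusted p = 0.538). Cope differed by 0.11 (adjusted p = 0.534), Arcn1 by 0.10, Copb2 by 0.07, Arf1 by 0.04, Copa by 0.04 and Copz1 by -0.03. The median of the 8 was 0.08, with 7 above 0, beside 49.5% of all genes.

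At 0.1 mg/kg against vehicle 0 of 8 members passed and 0 of 31042 probe sets (0%), and 0 members had an unadjusted p under 0.05 (1.33% of all genes upward). The differences ran from -0.12 for Copz1 to 0.08 for Arf1, with a median of 0.03 and 5 of 8 above 0, beside 55.0% of all genes. Copg1 read 9.17, 9.08, 9.07, 9.06 and 8.86, and replicate 1, the array with high Cyp1a1, was the highest of them. The same array was also the highest of its group for Copb1 (10.71 against 10.53 to 10.62) and Copb2 (11.56 against 11.34 to 11.50). This held for Copa, Arcn1 and Arf1 too. For Copz1 (11.15 against 10.92 to 11.52) and Cope (10.025 against 9.98 to 10.08) the array was not the highest. It stood inside the vehicle range for Copg1 and just above it for Copb1 and Copb2.

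Between 50 and 15 mg/kg 0 of 8 members passed, as did 0 of 31042 probe sets (0%). Copg1 differed by 0.19 (SE 0.084), Copb1 by 0.15 (SE 0.064) and Copb2 by 0.15 (SE 0.068), each with an unadjusted p under 0.05 and an adjusted p of 0.606 to 0.626 (limma). Upward, 5.34% of all genes had an unadjusted p under 0.05 in this comparison. Of the 8 members 7 were above 0, with a median of 0.07, beside 52.9% of all genes. Of the genes as bright as the members 1907 of 3107 were above 0, with a median of 0.036.

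Of the 4 members with the largest differences, Copb1, Copb2 and Arcn1 had group means in the order of dose, and Copg1 was lowest at 0.1 mg/kg. Copg1 averaged 9.10 ± 0.135 in vehicle, 9.05 ± 0.115 at 0.1, 9.30 ± 0.088 at 15 and 9.48 ± 0.123 at 50 mg/kg (SD, n = 5, 5, 4 and 5). Copb1 averaged 10.58 ± 0.101, 10.60 ± 0.068, 10.70 ± 0.060 and 10.85 ± 0.078 in that order. Copb2 averaged 11.41, 11.46, 11.48 and 11.63, and Arcn1 10.97, 11.03, 11.07 and 11.18. No pair of neighbouring doses passed in the tests made, which did not include 15 against 0.1 mg/kg. The means rose from vehicle through 15 to 50 mg/kg in 7 of 8 members, Copz1 being the exception, and in 21.6% of all genes. The 3 comparisons with vehicle share the vehicle arrays, and the members were chosen with these values known.

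The highest correlations between members were those among Copb1, Copb2 and Arcn1 and that of Copb1 with Copg1. Over 19 arrays and all 28 pairs of members, the correlation was above 0 in 19 pairs, with a median r of 0.32, or 0.16 with group means removed. An adjusted permutation p of r under 0.05 was found for 11 pairs, of which Copz1 with Arcn1 was negative (two-sided, 100000 resamples, Benjamini-Hochberg over 28). The resamples moved arrays across dose groups and counted the nearly identical arrays as separate, so these p-values also hold the dose differences. No p was computed for r with group means removed. The same share over pairs of other genes was not computed. The arrays share the dose groups and their normalization, so r is also given after subtracting each group's mean. The closest pair was Copb2 of the outer layer and Arcn1 of the inner layer, with r = 0.90 and rho = 0.80 (permutation, adjusted p = 0.00014 and 0.000747). It was 0.85 with group means removed, 0.87 without the 2 farthest arrays, 0.87 without the 3 arrays that stand apart (n = 16) and 0.87 and 0.84 within array numbers 9 to 20 (n = 12) and 1 to 8 (n = 7).

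Copb1 followed both, with r = 0.84 and rho = 0.79 for Arcn1 and r = 0.84 and rho = 0.81 for Copb2, and 0.79 and 0.66 with group means removed. Copb1 and Copg1 had r = 0.84 and rho = 0.84 (permutation, adjusted p = 0.00014 and 0.00028), but 0.50 once group means were removed. Copz1 ran against Arcn1, with r = -0.54 and rho = -0.56 (permutation, adjusted p = 0.0453 and 0.0392), and -0.34 without the 2 farthest arrays. Against the other inner-layer subunits Copz1 had r = -0.41 with Copb1 and -0.10 with Copg1, and neither pair passed. Arf1 had r from -0.37 to 0.27 with the subunits, and from -0.54 (Copb2) to 0.51 (Copz1) with group means removed.

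**Figure D4:**
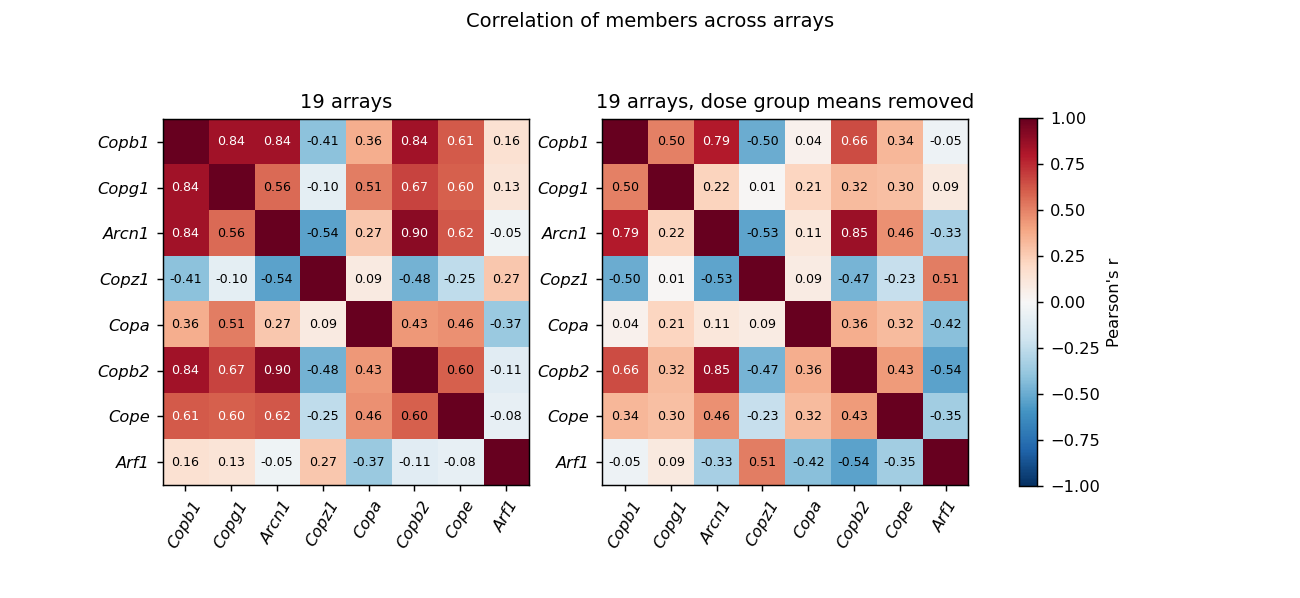
Pearson's r between the leading probe sets of the 8 genes over 19 arrays (left) and over the same arrays after each dose group's mean was subtracted (right), on a colour scale from -1 to 1. Copb1, Copb2 and Arcn1 form a block of high r on both sides (0.84 to 0.90 and 0.66 to 0.85), and Copz1 is negative against each of them.

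Outside the members, the genes most like them were sought by Pearson's r with the mean of the 8 standardised members over 19 arrays, among 7100 genes above the median level. The 6 with the highest r were Ssr2 (0.93), Ssr1 (0.92), Higd1a (0.92), Mmgt1 (0.92), Ufc1 (0.92) and Surf4 (0.91). Ssr1 and Ssr2 are subunits of the translocon-associated protein complex of the ER, Surf4 is a cargo receptor that cycles between ER and Golgi, and Mmgt1 is a subunit of the ER membrane protein complex. Ufc1 is the conjugating enzyme for the modifier UFM1, and Higd1a is a mitochondrial protein. With group means removed r ranged from 0.76 for Mmgt1 to 0.88 for Ufc1 and Surf4. These are the top of a ranking and carry no test.

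The partners of coatomer in the ARF cycle were measured through 11 genes at 50 mg/kg against vehicle, of which 0 rose and 0 fell, with a median of 0.02. Those with the largest differences were Arf5, another ARF GTPase, at -0.35 (adjusted p = 0.182), Arfgap3, which ends the Arf1 cycle on COPI vesicles, at 0.32 (adjusted p = 0.117), Arfgef2, an exchange factor, at 0.24 and Arf4 at 0.19. Among 18 p24 proteins and cargo receptors, passengers of COPI and COPII vesicles, 1 rose and 0 fell, with a median of 0.18. By the same rule 1.79% of all genes rose, and 4.12% of genes as bright as the members. The lectin Lman2 rose by 0.39 (SE 0.086, adjusted p = 0.0298, limma), while Lman1, the receptor of coagulation factors, differed by 0.52 (adjusted p = 0.202) and Surf4 by 0.36 (adjusted p = 0.0897). The KDEL receptors Kdelr1 (0.00, adjusted p = 0.981) and Kdelr2 (0.04, adjusted p = 0.844), which COPI returns to the ER with escaped chaperones, showed no detectable difference; they were singled out after their values were seen.

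COPII is the coat of the opposite, ER-to-Golgi direction. All 12 of its measured genes were above 0, beside 51.5% of all genes, or 9 of 12 without the 3 arrays that stand apart. The median was 0.19, and 2 rose, beside 1.79% of all genes and 4.12% of genes as bright as the members: the GTPase Sar1b by 0.53 (SE 0.102, adjusted p = 0.0131, limma) and the outer coat subunit Sec13, which is also part of the nuclear pore, by 0.42 (adjusted p = 0.0356). The cargo adaptor Sec24d (0.46, adjusted p = 0.0555) and Sec23b (0.35, adjusted p = 0.111) did not pass. Of 27 SNAREs and tethers between ER and Golgi 0 passed, with a median of 0.10, led by the tether subunit Rint1 at 0.72 (adjusted p = 0.0805). Of 14 clathrin and adaptor genes, which belong to other coats, 0 passed, with a median of 0.06, led by the light chain Cltb at 0.48 (adjusted p = 0.177).

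Upstream in the ER, 6 of 21 translocon and signal peptidase genes rose and 0 fell, with a median of 0.18, beside 1.79% of all genes and 4.12% of genes as bright as the members that rose. They were the signal peptidase subunits Sec11c (0.57, adjusted p = 0.0385, limma) and Spcs2 (0.42, adjusted p = 0.0112), the signal recognition particle and its receptor through Srp54a (0.42, adjusted p = 0.00351) and Srprb (0.36, adjusted p = 0.0298), and Ssr1 (0.56, adjusted p = 0.0218) and Ssr2 (0.41, adjusted p = 0.0471). Of 24 ER chaperone and unfolded protein response genes 4 rose and 0 fell, with a median of 0.28, beside the same 1.79% and 4.12%. The 4 were Sdf2l1 (1.00), Pdia4 (0.55), Dnajb11 (0.53) and Dnajc3 (0.48), with adjusted p from 0.0184 to 0.0426 (limma). Sdf2l1, Dnajb11 and Dnajc3 are partners of the chaperone BiP, and Pdia4 is a disulphide isomerase. Without the 3 arrays that stand apart, 1 p24 or cargo receptor gene, 3 COPII, 1 tether, 4 translocon and 2 chaperone genes rose. Over all probe sets 493 of 31042 (1.59%) were then called in either direction. With array numbers as a block, 1 gene rose over all these lists, Srp54a, beside 0.184% of all probe sets called in either direction. Whether coatomer differs from these lists was not tested.

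**Figure D5:**
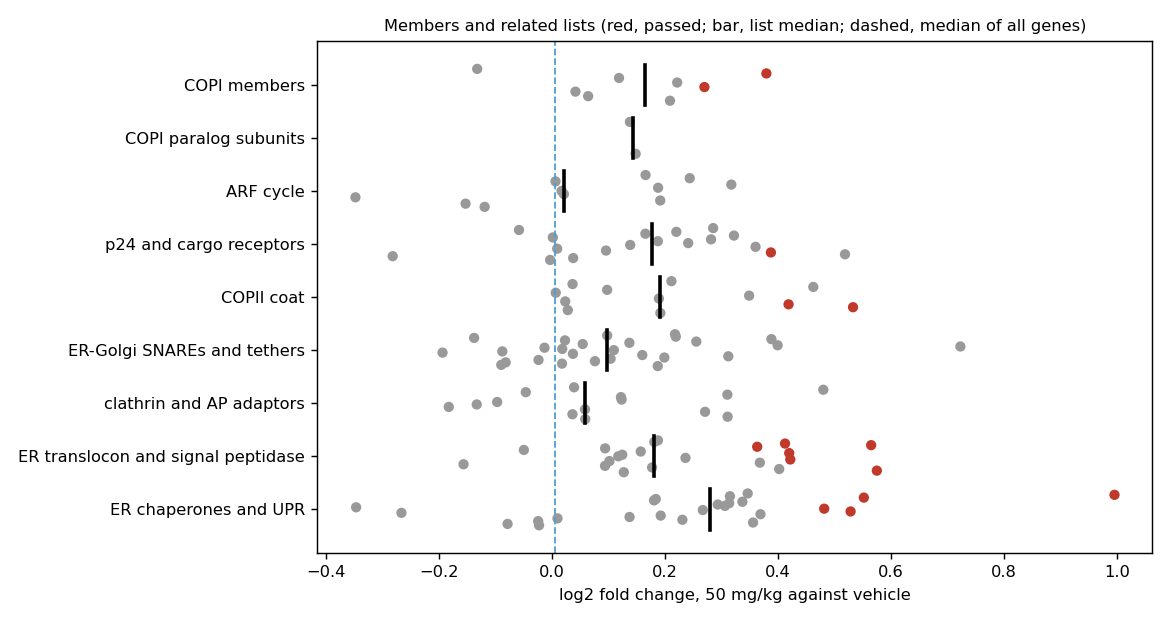
Log2 fold change at 50 mg/kg against vehicle for each measured gene of the members and of 8 related lists (1 point per gene, red where the adjusted p passed 0.05), with a bar at each list's median and a dashed line at the median of all genes. Red points stand in the members, the cargo receptors, COPII, the translocon and the chaperones, and medians run from 0.02 for the ARF cycle to 0.28 for the chaperones.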

How the data were processed

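The authors deposited log2 signals of 19 rat liver arrays (Affymetrix Rat230_2, 3' probe sets), made with RMA (robust multi-array average: background correction, quantile normalization and summary of a probe set's probes) per the submitters' processing notes. The RMA version was not given in the sources used here. Quantile normalization removes shifts shared by all transcripts, and RMA compresses fold changes near both ends of the range. Array medians lay between 6.05 and 6.16, and the number of arrays limits the precision.

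Without 57 controls, 31042 probe sets were tested on these log2 values with limma 3.58.1 in R 4.3.3, with 1 mean per dose group over all 19 arrays (15 residual and 2.78 prior degrees of freedom), two-sided, with Benjamini-Hochberg adjustment across them and a threshold of 0.05. The fit was tested on simulated data with independent noise between arrays. The differences added there were larger than any of the members', so that test does not show how well differences of their size are found. The submitters compared each dose with vehicle, per the labels. The comparison of 50 with 15 mg/kg was added. Platform annotation gave 20826 probe sets 1 symbol, 436 several and 9780 none, and 20758 took their RefSeq symbol by gene ID. The brightest probe set of a gene, by its mean over the arrays, represents it. The members, lists and tests were chosen with earlier results of these data known. Named were the 8 members, of each related list up to 4 genes with the largest change at 50 mg/kg and those that passed, and the 6 genes most like the members. Also named were Cyp1a1, the sex-linked genes, Camp as the marker gene that passed, and Kdelr1 and Kdelr2, picked after their values were seen. Nothing in the labels says that arrays come from separate animals, so p-values measure only how these arrays spread, which may be technical. All 8 members matched the RefSeq promoter table. Proteins were not analysed here.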

Additional observations from a re-analysis of the deposited data

How the results depend on the processing

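The 2 members that rose at 50 mg/kg against vehicle depended on the setting. There were 0 with array numbers 1 to 8 and 9 to 20 as a block, 0 with muscle and pancreas levels as covariates, 0 in a fit of the 2 groups alone (Copb1 adjusted p = 0.0893, Copg1 0.0641) and 0 with the array number block and the 3 arrays that stand apart left out (adjusted p = 0.166 and 0.156). There was 1 with each gene's probe sets averaged and 1 without those 3 arrays, and leaving out each array gave 0 to 2. Array weights gave 3, with Copb2 passing (adjusted p = 0.0367). Over 23 alternatives Copg1 passed in 13 (adjusted p = 0.00514 to 0.156) and Copb1 in 11 (adjusted p = 0.0195 to 0.172), both above 0 in all 23. The members' median ran from 0.12 to 0.20, beside 0.16. For 50 against 15 mg/kg the median was 0.13 with probe sets averaged, beside 0.07. The cause was not tested, except that a fit of 2 groups has fewer arrays. In none of these alternatives did a called value turn in direction, and 0 members passed in the other 3 comparisons under any of the 22 alternatives run for each. The correlation of same-numbered arrays' deviations ran from -0.53 to 0.50 over replicates 1 to 5 of 50 mg/kg and vehicle, and from -0.19 to 0.37 for 15 mg/kg and vehicle. For 0.1 mg/kg and vehicle it was above 0 in all 5 (0.05 to 0.89, the highest in the nearly identical replicates 2). It was not over 0.1 for every pair in any comparison, so the numbers were not taken to pair the arrays. A replicate block gave 2 members, Copb1 (adjusted p = 0.0384) and Copg1 (adjusted p = 0.00514). The settings that leave out the 3 arrays were chosen after the data had been seen.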
